A study of Mus musculus with 6 samples.

Results

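Heme breakdown and the NRF2 antioxidant response were followed through 10 genes in bulk RNA-seq of the S1 cortex, namely Hmox1, Hmox2, Blvra, Blvrb, Nfe2l2, Nqo1, Gclc, Gclm, Srxn1 and Txnrd1. The set was chosen on the readout, because Hmox1 stood out in the deposited table of libraries with whisker stimulation (WS) and with no stimulation (NS), and the other 9 were added as its partners in heme breakdown and NRF2 signalling. The difference in Hmox1 between WS and NS is therefore given as a description, with no test. All 10 were among the 14824 genes of the deposited table, and all 10 were among the 13747 genes that passed the filter on low counts and were tested.

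The 6 libraries came from wild-type mice of the strain labelled C57B6 at postnatal day 21, with 3 libraries per group. WS mice had their whiskers brushed daily up to that age and the cortex was taken 90 minutes after the last session, while NS samples are labelled as having no treatment. The mice of the study are male, and its stimulation scheme takes the barrel cortex of the unstimulated side as the control, but the labels do not say which NS and WS libraries share an animal. RNA was accepted with an RNA integrity number above 2 and no value per sample is given, so differences in RNA quality between libraries were not tested. Counts over the listed genes summed to between 15660395 and 17276168 per library, and levels are in CPM, the reads of a gene relative to all counted reads of its library after TMM normalization.

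Heme oxygenases open the ring of heme and release biliverdin, iron and carbon monoxide, and biliverdin reductases turn biliverdin into the antioxidant bilirubin. The transcription factor NRF2, encoded by Nfe2l2, is held back by KEAP1 and degraded in unstressed cells. Under oxidative or electrophilic stress it builds up, pairs with small MAF proteins and binds antioxidant response elements near genes for glutathione synthesis, thioredoxin reduction and detoxification. Hmox1 is one of its best known targets and is also controlled by heme through the repressor BACH1. In brain the NRF2 response is known to be stronger in astrocytes than in neurons.

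The letters of the antioxidant response element were looked for in the 250 bases before each RefSeq start site (GRCm38.p6), to show where the best known link between NRF2 and these genes could lie. RefSeq windows were found for 8 of the 10 genes, with no entry for Hmox1 and Gclc. The core TGACNNNGC, read on both strands, was in 4 of the 13 windows of these 8 genes, some of which have more than 1 start, and in 10.2% of the 32851 windows of all genes. The 4 windows belong to 4 genes. The lines below give these 4 matches with 10 or 12 bases on each side, 5′ to 3′ on the strand of the gene. Capitals mark the match, which in Blvra, Gclm and Txnrd1 lies on the opposite strand and is read in reverse complement.

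Nfe2l2, chr2:75704883-75704913, minus strand, 240 to 232 bases before the start: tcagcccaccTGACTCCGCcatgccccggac
Blvra, chr2:127070596-127070628, plus strand, 49 to 41 bases before the start: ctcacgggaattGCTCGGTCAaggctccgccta
Gclm, chr3:122245411-122245443, plus strand, 134 to 126 bases before the start: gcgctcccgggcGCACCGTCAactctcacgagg
Txnrd1, chr10:82859102-82859134, plus strand, 92 to 84 bases before 1 of its 3 starts: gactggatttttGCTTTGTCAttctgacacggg

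The Srxn1 window held no such core but held the related AP-1 letters TGANTCA at 2 places, which can be part of a longer antioxidant response element. These letters were in this 1 of the 13 member windows and in 6.75% of all windows. Both stretches are shown with the match in capitals.

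Srxn1, chr2:152105410-152105440, plus strand, 102 to 96 bases before the start: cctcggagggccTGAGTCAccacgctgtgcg
Srxn1, chr2:152105467-152105497, plus strand, 45 to 39 bases before the start: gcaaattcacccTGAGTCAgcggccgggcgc

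The letters ACGTG of the hypoxia response element were in 2 of the 13 member windows, 1 each of Gclm and Blvrb, and in 16.6% of all windows. A match of letters does not show that a factor binds there, and elements farther from the start were not searched.

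Levels of different genes were compared as CPM per kb of exon, since a long transcript collects more reads. Srxn1, which encodes the sulfiredoxin that repairs over-oxidized peroxiredoxins, had the highest level of the 10, with 34.0 ± 1.93 CPM per kb (SD, n = 6 libraries). Hmox2, the constitutive heme oxygenase, came next with 22.8 ± 0.959, followed by Gclc with 16.0 ± 0.621 (SD, n = 6 each). Txnrd1 had 7.60 ± 0.222 CPM per kb and Blvra 6.18 ± 0.285 (SD, n = 6 each). Each of these 5 genes lay above the next in the order in every library, with no overlap of the ranges. Nfe2l2 (4.58 ± 0.446 CPM per kb) and Gclm (4.48 ± 0.230) had overlapping ranges (SD, n = 6 each). At the low end Hmox1 had 3.37 ± 0.305 CPM per kb, Blvrb 2.88 ± 0.355 and Nqo1 2.29 ± 0.534 (SD, n = 6 each). The ranges of Hmox1 and Blvrb overlapped, and so did those of Blvrb and Nqo1. With the longest transcript in place of all exons, Blvrb moved from place 9 to place 7, ahead of Gclm and Hmox1.

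**Figure D1:**
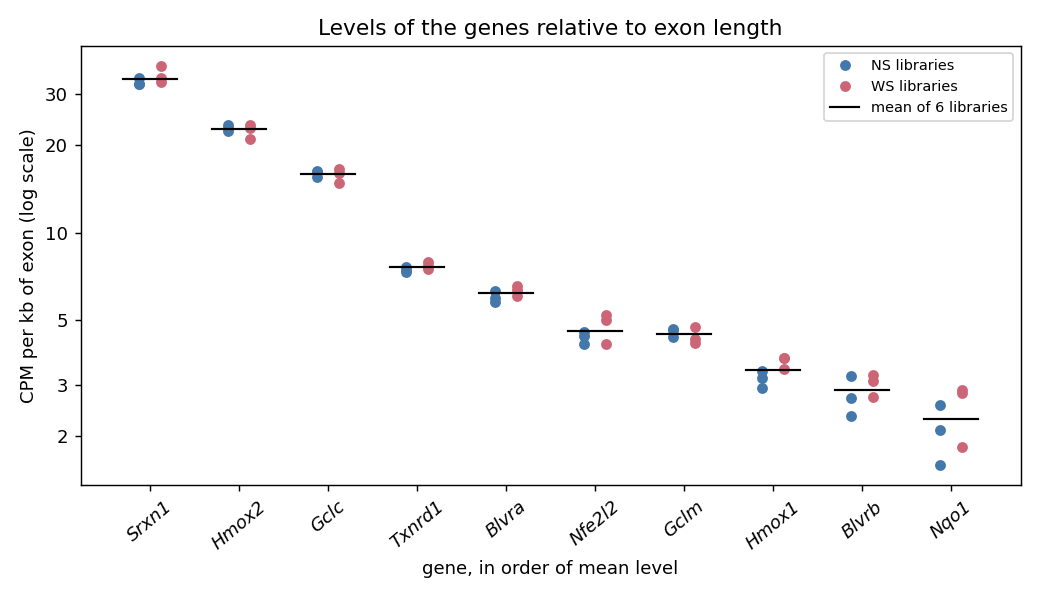
CPM per kb of exon (log scale) for the 10 genes in order of their mean, with a point for each of the 3 NS and 3 WS libraries and a line for the mean of the 6. Srxn1 at 34.0 and Hmox2 at 22.8 stand highest, and Hmox1, Blvrb and Nqo1 between 3.37 and 2.29 lowest.

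Hmox1, the inducible heme oxygenase (chromosome 8 of GRCm38, 75093621 to 75100589, plus strand), was counted 93, 82 and 89 times in NS replicates 1, 2 and 3, and 109, 96 and 103 times in WS replicates 1, 2 and 3. This amounts to 5.86, 5.12 and 5.53 CPM in NS and to 6.46, 5.94 and 6.51 CPM in WS. Every WS library lay above every NS library, with 3 reads between the lowest WS count and the highest NS count. NS averaged 5.50 ± 0.373 CPM and WS averaged 6.30 ± 0.315 CPM (SD, n = 3 each). The fitted log2 fold change was 0.20 with a standard error of 0.15, or 1.15-fold. Leaving out 1 library at a time gave log2 fold changes from 0.15 (without NS replicate 2) to 0.24 (without NS replicate 1). Of all genes tested, 12.1% had a larger absolute log2 fold change than Hmox1.

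The Hmox1 difference rests on few reads. The 3 NS counts sum to 264 and the 3 WS counts to 308, and counting error alone gives the log2 fold change a standard error of 0.12. The SD of the counts was 5.57 in NS and 6.51 in WS, while counting error alone would give 9.38 and 10.1. A gene chosen for standing out between groups tends to be one with little scatter within them, so nothing is read from these SDs.

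Hmox2 (chromosome 16, 4726361 to 4766742, plus strand) was at 51.0, 49.9 and 52.1 CPM in NS and at 52.4, 51.0 and 46.6 CPM in WS. The groups overlapped, and WS replicate 3 was the lowest of the 6. Its log2 fold change was -0.03 (standard error 0.08, 95% interval -0.21 to 0.16), and 0.02 without WS replicate 3. Hmox2 was the only member whose counts did not come back as whole numbers, with 809.42 in NS replicate 1, for example. Its exons overlap those of Cdip1 on the other strand, and whether the counting used strand is not given in the sources used here, so reads of these 2 genes may not have been told apart.

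By these counts Hmox1 made up a small part of the heme oxygenase level per kb in every library, though the Hmox2 counts may include reads of Cdip1. As a share of the summed Hmox1 and Hmox2 level per kb Hmox1 held 12.7%, 11.5% and 11.8% in NS replicates 1 to 3, against 13.5%, 12.8% and 15.0% in WS replicates 1 to 3. Together both genes reached 26.2 ± 0.634 CPM per kb in NS against 26.1 ± 1.32 for WS (SD, n = 3 each), a difference smaller than the spread between replicates.

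The biliverdin reductases differed from each other in level more than between the groups. Blvra, which encodes biliverdin reductase A (chromosome 2, 127070665 to 127097084, plus strand), was at 14.6, 14.2 and 15.5 CPM in NS and at 15.5, 16.1 and 14.8 CPM in WS. Blvrb, which encodes biliverdin reductase B, a flavin reductase abundant in red blood cells (chromosome 7, 27447978 to 27466144, plus strand), was at 7.50, 6.49 and 8.94 CPM in NS and at 8.59, 8.97 and 7.58 CPM in WS. Both genes overlapped between the groups, and in both WS replicate 3 lay below NS replicate 3. The log2 fold changes were 0.07 (standard error 0.10, 95% interval -0.15 to 0.29) for Blvra and 0.13 (standard error 0.15, 95% interval -0.20 to 0.47) for Blvrb. With 1 library left out they ran from 0.03 (without WS replicate 2) to 0.10 (without NS replicate 3) for Blvra, and from 0.03 (without NS replicate 2) to 0.26 (without NS replicate 3) for Blvrb. The level per kb of Blvra was 2.22 ± 0.258 times that of Blvrb in NS, against 2.11 ± 0.104 times for WS (SD, n = 3 each; exact permutation test, two-sided p = 0.70, where 0.10 is the smallest that 3 against 3 allow).

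Nfe2l2, the gene of NRF2 itself (chromosome 2, 75675513 to 75704641, minus strand), was at 16.7, 15.7 and 17.3 CPM in NS and at 15.8, 19.8 and 19.0 CPM in WS. WS replicates 2 and 3 were the 2 highest libraries, while WS replicate 1 fell within the NS range. The log2 fold change was 0.13 (standard error 0.11, 95% interval -0.11 to 0.38), and ranged from 0.06 without WS replicate 2 to 0.23 without WS replicate 1.

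Nqo1, a quinone reductase that is widely used as a readout of NRF2 activity (chromosome 8, 107388225 to 107403206, minus strand), had the lowest counts of the set, with 39, 52 and 64 reads in NS and 48, 72 and 69 in WS. The CPM were 2.46, 3.25 and 3.98 in NS and 2.84, 4.45 and 4.36 in WS. The groups overlapped, replicate 1 was the lowest library in both groups, and WS was above NS in all 3 same-numbered pairs. Nqo1 had the largest log2 fold change of the 10, 0.26, and the largest standard error, 0.24 (95% interval -0.26 to 0.79). Leaving out 1 library moved it between 0.10 (without NS replicate 1) and 0.45 (without WS replicate 1).

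Gclc and Gclm encode the catalytic and the modifier subunit of glutamate-cysteine ligase, which makes the rate-limiting step of glutathione synthesis. Gclc (chromosome 9, 77754535 to 77794485, plus strand) was at 61.7, 61.2 and 58.8 CPM in NS and at 56.0, 60.7 and 62.3 CPM in WS, with both the lowest and the highest library in WS. Gclm (chromosome 3, 122245557 to 122270732, plus strand) was at 29.2, 27.5 and 29.3 CPM in NS and at 27.1, 26.3 and 29.9 CPM in WS, again overlapping. The log2 fold changes were -0.02 for Gclc (standard error 0.08, 95% interval -0.20 to 0.16) and -0.05 for Gclm (standard error 0.09, 95% interval -0.25 to 0.16). Gclc was 0.02 without WS replicate 1, and Gclm ran from -0.10 (without WS replicate 3) to -0.02 (without WS replicate 2). The ratio of Gclc to Gclm level per kb was 3.53 ± 0.188 in NS, against 3.60 ± 0.224 for WS (SD, n = 3 each; exact permutation test, two-sided p = 0.70). In the annotation, exons of Gclm overlap a processed pseudogene on the same strand, Gm6061, and a noncoding gene on the other strand, Gm17494, so its reads could be shared with them.

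Srxn1 (chromosome 2, 152105516 to 152111376, plus strand) was at 96.3, 91.6 and 91.6 CPM in NS and at 106.0, 96.1 and 93.2 CPM in WS. WS replicate 1 was the highest, and the other WS libraries lay within the NS range. Txnrd1, the cytosolic thioredoxin reductase (chromosome 10, 82833951 to 82897712, plus strand), was at 52.6, 54.2 and 51.9 CPM in NS and at 56.4, 54.4 and 53.4 CPM in WS. WS replicate 1 was again the highest, and WS replicate 3 lay within the NS range. For Srxn1 and Txnrd1, as for Nqo1, WS was above NS in all 3 same-numbered pairs. This held for 3 of the 9 genes other than Hmox1 and for 9.82% of all genes tested, and was not tested. The log2 fold changes were 0.08 for Srxn1 (standard error 0.08, 95% interval -0.09 to 0.25) and 0.05 for Txnrd1 (standard error 0.08, 95% interval -0.12 to 0.22). Without WS replicate 1 they were 0.02 and 0.03.

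**Figure D2:**
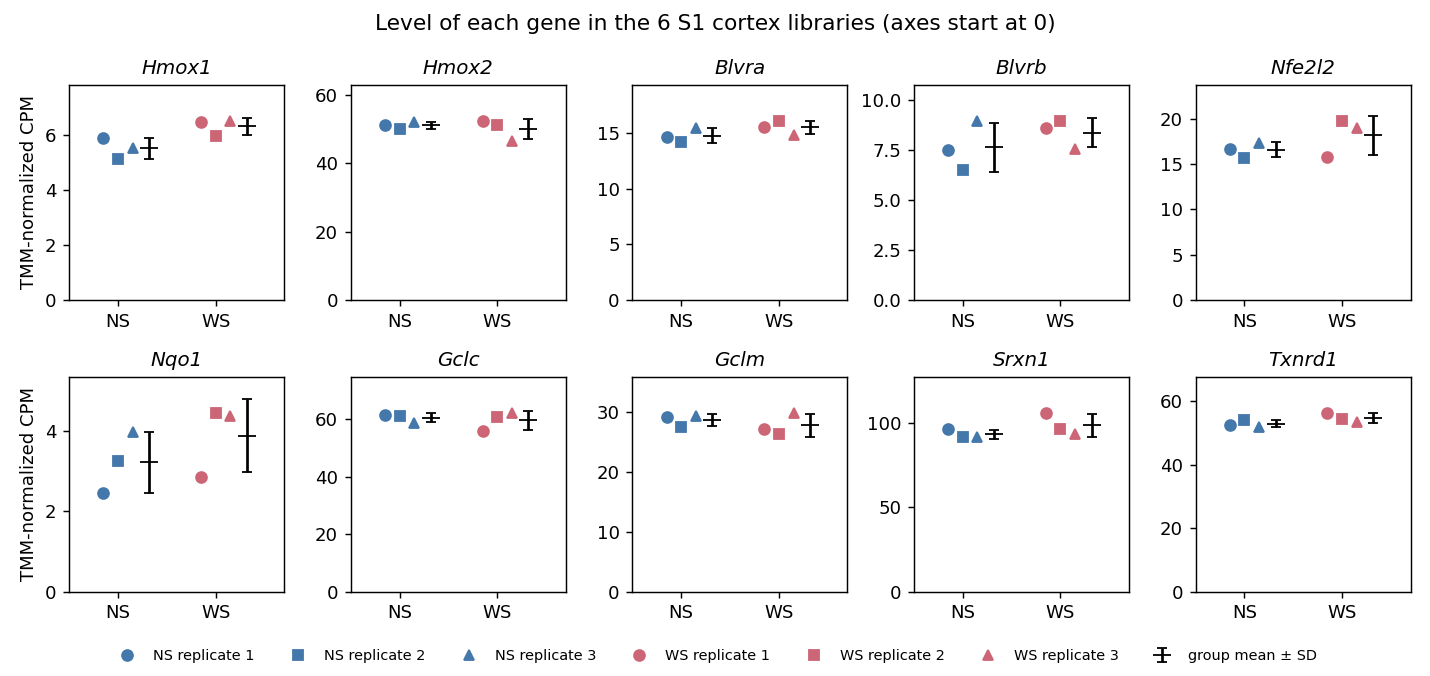
TMM-normalized CPM of the 10 genes in each of the 3 NS and 3 WS libraries, with symbols for the replicate number and bars for the group mean ± SD, and each axis starting at 0. Only for Hmox1 do all WS points (5.94 to 6.51 CPM) lie above all NS points (5.12 to 5.86 CPM).

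Of the 9 genes other than Hmox1, 6 had a higher and 3 a lower fitted level in WS, where 53.0% of all genes tested were higher. The median log2 fold change was 0.08 over the 10 genes, 0.07 over the 9 without Hmox1 and 0.01 over all genes tested. The median absolute log2 fold change was 0.08 over the 10 genes, Hmox1 included, and 0.07 over all genes tested. Hmox1 was the only 1 of the 10 with no overlap of the groups, and it was chosen for its difference. Over all genes tested, 3.11% had all WS libraries above all NS libraries, and 3.16% had them all below.

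For the 9 genes other than Hmox1, 0 had an adjusted p under 0.05, and all stood at an adjusted p of 0.9998 (Benjamini-Hochberg over 13747 genes, quasi-likelihood test of edgeR). At an unadjusted p under 0.05 there were also 0 of the 9 by edgeR, with the lowest p at 0.264 for Nfe2l2, and 0 by DESeq2. Over all genes 0.0364% passed the adjusted p, and 0.0291% passed it with a log2 fold change above 1 in WS. The 95% intervals of the 9 genes all included no difference. Their upper ends lay between 1.11-fold higher in WS for Gclc and Hmox2 and 1.73-fold for Nqo1, and their lower ends between 0.834-fold for Nqo1 and 0.938-fold for Srxn1.

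**Figure D3:**
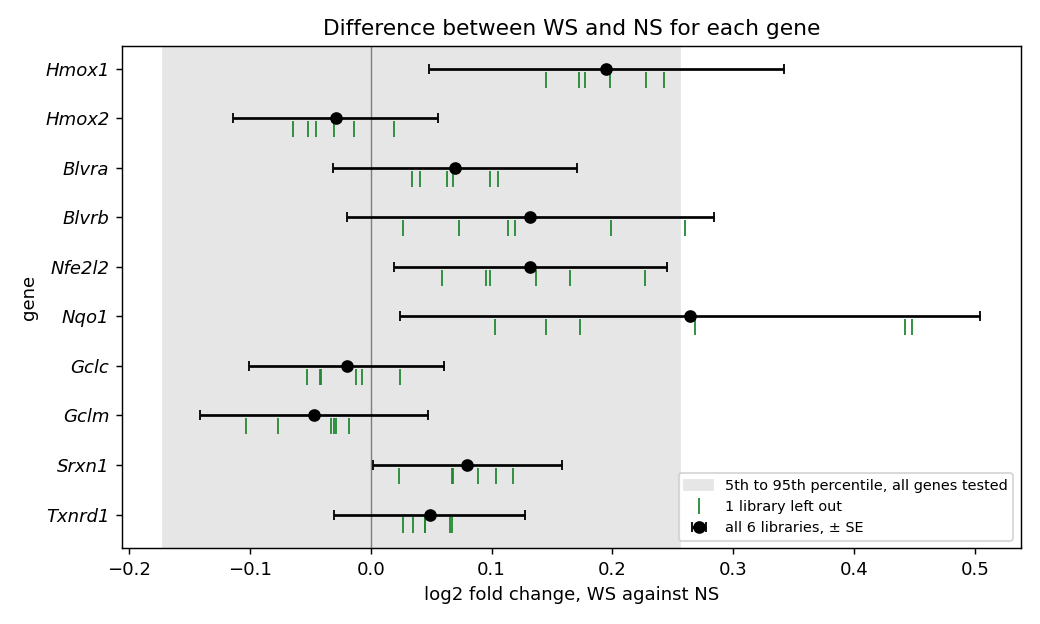
Log2 fold change of WS against NS for the 10 genes with all 6 libraries (points, ± standard error) and with each library left out (green marks), over a band for the 5th to 95th percentile of all genes tested, -0.17 to 0.26. Hmox1 lies at 0.20, and Nqo1 at 0.26 has the widest spread, from 0.10 to 0.45.

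Other genes that NRF2 is known to control showed no call. Of 20 such genes 19 were tested (Osgin1 was under the filter), and 12 were higher and 7 lower in WS, with 0 called and a median log2 fold change of 0.04. The largest differences were in Gss, which encodes glutathione synthetase (NS 14.4 ± 1.09 CPM, WS 16.2 ± 1.02 CPM, log2 fold change 0.17, standard error 0.11), and in the glutathione transferase Gstm1 (NS 250.6 ± 21.8 CPM, WS 272.6 ± 43.2 CPM, log2 fold change 0.12, standard error 0.11; SD, n = 3 each). Of 11 regulators and partners of NRF2, 7 were higher and 4 lower, with 0 called and a median of 0.03. The largest differences there were in the small MAF gene Mafk (0.20, standard error 0.16) and in Bach1 (0.15, standard error 0.13), whose product represses Hmox1. Of 14 enzymes that remove peroxide and superoxide, 9 were higher and 5 lower, with 0 called and a median of 0.02. Prdx4, a peroxiredoxin of the endoplasmic reticulum, was lower in every WS library than in any NS library (NS 14.4 ± 1.63 CPM, WS 11.6 ± 1.37 CPM; SD, n = 3 each), with a log2 fold change of -0.32 that did not pass (unadjusted p = 0.032, adjusted p = 0.9998, edgeR's quasi-likelihood test). Sod3, the extracellular superoxide dismutase, had 0.22 (standard error 0.14).

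The genes that make heme and that move heme and iron also showed no call. Of the 8 genes of heme synthesis, 2 were higher and 6 lower, with 0 called and a median log2 fold change of -0.05. Both that were higher are the largest of the list, Ppox at 0.24 (standard error 0.14) and Alad at 0.14 (standard error 0.10). Of 15 genes of heme and iron transport 13 were tested (Hpx was under the filter and Hp was not among the genes of the deposited table). Of these, 8 were higher and 5 lower, with 0 called and a median of 0.06. Their summed level was 1101 to 1206 CPM in NS and 1239 to 1263 CPM in WS, with no overlap. Without Trf, the gene with the largest difference in CPM, the sums still did not overlap (924.6 to 996.5 CPM in NS, 1006 to 1040 CPM in WS). Trf, which encodes the iron carrier transferrin, was at 176.7, 208.8 and 189.8 CPM in NS and at 221.8, 249.5 and 222.2 CPM in WS. All its WS libraries lay above its NS libraries, at a log2 fold change of 0.27 (standard error 0.08) that did not pass (unadjusted p = 0.00845, adjusted p = 0.9998, edgeR's quasi-likelihood test). Trf is known to be made by oligodendrocytes in brain, and all 8 oligodendrocyte markers were also higher in WS, with a median of 0.19, and their part in it was not tested. Flvcr2 had 0.25 (standard error 0.30).

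The heat shock and hypoxia pathways are both known to reach Hmox1. Of 6 heat shock genes, 5 of them inducible and the other the constitutive Hspa8, 2 were higher and 4 lower, with 0 called and a median of -0.04, and the largest differences were in Hspa1a (0.21, standard error 0.17) and Hspb1 (0.12, standard error 0.13). The summed level of the list was lower in WS with no overlap (2670 to 2817 CPM in NS, 2577 to 2628 CPM in WS). Most of it is Hspa8, at 2289, 2452 and 2367 CPM in NS and at 2244, 2240 and 2231 CPM in WS (log2 fold change -0.08, standard error 0.08), and without it the sums overlapped (365.5 to 381.0 CPM in NS, 336.6 to 383.1 CPM in WS). Hspa8 was picked after its values were seen. Of 12 HIF1 target genes, 6 were higher and 6 lower with a median of 0.00 and summed levels of 1275 to 1301 CPM in NS and 1310 to 1447 CPM in WS, and 1 was called. Without that gene the sums overlapped (1222 to 1251 CPM in NS, 1153 to 1300.0 CPM in WS). It was Vegfa, which rose from 50.9 ± 1.64 to 134.8 ± 30.7 CPM (SD, n = 3 each; log2 fold change 1.40, adjusted p = 0.00356, edgeR's quasi-likelihood test). Its adjusted p was 0.0851 without NS replicate 2 and 0.0636 without NS replicate 3, with log2 fold changes of 1.43 and 1.39. The adjusted p stayed under 0.05 in the other settings, at 3.3e-08 with the replicate block (edgeR's quasi-likelihood test) and at 2.6e-20 by DESeq2. Ankrd37 had 0.49 (standard error 0.29).

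The medians of these pathway lists were small and most of them changed sign with 1 library left out. The median of the other NRF2 targets ran from -0.002 (without WS replicate 2) to 0.05, that of the peroxide and superoxide enzymes from -0.05 (without WS replicate 1) to 0.07, and that of heme and iron transport from -0.004 (without WS replicate 3) to 0.07. The heme synthesis median ran from -0.09 to 0.01 (without NS replicate 3), the heat shock median from -0.08 to 0.02 (without WS replicate 2) and the HIF1 median from -0.04 (without WS replicate 2) to 0.00. Only the regulators and partners of NRF2, of these 7 lists, kept a median above 0 throughout, from 0.02 to 0.04.

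Marker genes of cells in the cortex that can carry Hmox1 were set beside it. In bulk tissue, fewer cells of a type and less RNA per cell cannot be told apart. Of 10 microglia markers 9 were higher in WS, 0 were called, and their summed level was 507.8 to 534.1 CPM in NS and 540.4 to 558.9 CPM in WS, with no overlap. Without Csf1r, the marker with the largest difference in CPM, the sums still did not overlap (398.9 to 426.0 CPM in NS, 427.2 to 432.2 CPM in WS). The largest log2 fold changes were in Tmem119 (0.24, standard error 0.13) and Aif1 (0.19, standard error 0.23), and the list's median was 0.10. Of 10 endothelial markers 10 were higher, with a median of 0.10 and a summed level of 226.4 to 252.1 CPM in NS and 253.3 to 290.3 CPM in WS, again with no overlap. The sums overlapped without Pecam1 (210.0 to 232.9 CPM in NS, 220.3 to 248.8 CPM in WS). Pecam1 led that list at 0.87 (standard error 0.19, adjusted p = 0.813 by edgeR, 9.5e-04 by edgeR under the replicate block and 0.00224 by DESeq2), ahead of Kdr at 0.25 (standard error 0.13). Of the 5 border macrophage markers tested 4 were higher, led by Mrc1 (0.22, standard error 0.18) and Pf4 (0.19, standard error 0.35), with a median of 0.10 and summed levels of 10.2 to 16.4 CPM in NS and 14.4 to 15.9 CPM in WS. With all 6 libraries none of these markers was called, none was at 0 in all libraries, and Ms4a7 was under the filter. Without WS replicate 1 Pecam1 passed both thresholds (log2 fold change 1.08, adjusted p = 0.00542, edgeR's quasi-likelihood test). The Hmox1 log2 fold change of 0.20 stands beside medians of 0.10 in these 3 lists, and their part in it was not tested. With 1 library left out the median stayed between 0.07 and 0.12 for microglia and between 0.07 and 0.15 for endothelial markers, but ran from -0.10 (without NS replicate 3) to 0.27 (without NS replicate 1) for border macrophage markers.

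The other marker lists were described in the same way. All 10 astrocyte markers were higher, with a median of 0.13 and summed levels of 4587 to 5100 CPM in NS and 4810 to 5935 CPM in WS. They were led by Gja1 (0.59, standard error 0.51), whose reads numbered 347 in NS replicate 3 but 2967 and 3091 in NS replicates 1 and 2, and by Gfap (0.15, standard error 0.12). All 8 oligodendrocyte markers were higher, with a median of 0.19 and summed levels of 7184 to 10380 CPM in NS and 8530 to 11410 CPM in WS, led by Olig1 (0.22, standard error 0.09, with all WS libraries above all NS libraries, unadjusted p = 0.0284 and adjusted p = 0.9998 by edgeR) and Mag (0.20, standard error 0.11). Of 8 cortical neuron markers 4 were higher and 4 lower, with a median of -0.01, summed levels of 6880 to 7140 CPM in NS and 6814 to 7021 CPM in WS, and the largest differences in Gad2 (0.21, standard error 0.11) and Gad1 (0.13, standard error 0.09). The 6 red blood cell markers, which bear on Blvrb and on heme, were all higher by a median of 0.05, with overlapping summed levels of 484.5 to 766.9 CPM in NS and 603.3 to 638.7 CPM in WS. They were led by Hbb-b1 (0.20, standard error 1.46) and Hba-a2 (0.09, standard error 0.13), and Hbb-b1 had 1545 reads in NS replicate 2 and 1724 in WS replicate 2 against 3 to 74 in the other libraries. Of 5 choroid plexus markers (Ttr was not among the genes of the deposited table) 1 was higher and 4 were lower, with a median of -0.15. Their summed levels were 34.1 to 82.9 CPM in NS and 10.6 to 97.0 CPM in WS. The largest differences were in Folr1 (-0.31, standard error 0.64) and Kcnj13 (-0.18, standard error 0.43). Some of these medians moved with 1 library. The oligodendrocyte median was 0.05 without NS replicate 1. The red blood cell median ran from -0.05 (without NS replicate 1) to 0.32 (without NS replicate 3), and the choroid plexus median from -0.97 (without WS replicate 2) to 0.34 (without WS replicate 1). None of the genes of these 5 lists was called, and their part in the values of the 10 genes was not tested.

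**Figure D4:**
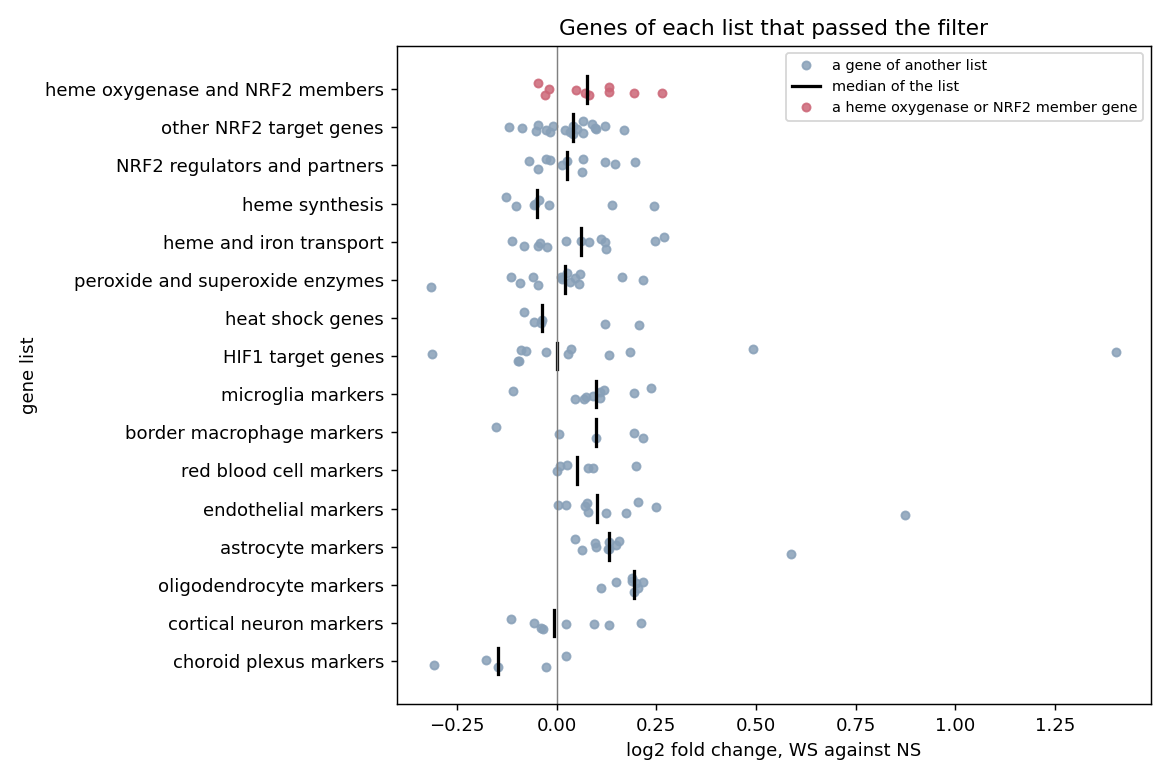
Log2 fold change of WS against NS for each gene that passed the filter, by list, with a black line for the median. The 10 heme oxygenase and NRF2 genes (red) lie between -0.05 and 0.26, and Vegfa in the HIF1 list lies far to the right at 1.40.

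The genes whose pattern over the 6 libraries was most like that of Hmox1 were found by the root mean square difference of z-scored log2 CPM, where 0 is the same pattern, over 10868 genes with at least 100 counts on average. The nearest were Mrps10, a mitochondrial ribosomal protein gene (0.196), Cux1, a transcription factor of upper cortical layers (0.242), Msl1 (0.270), Cemip (0.293) and Robo4, an endothelial guidance receptor (0.311). The nearest of the other 9 members was Srxn1 at 0.793, and the farthest was Hmox2 at 1.45. The nearest genes are the extreme of many compared over 6 libraries, so their closeness is a description.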

How the data were processed

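Before alignment with HISAT2 the authors took out low-quality and rRNA reads, and the submitters' processing notes list mm10 (the same assembly as GRCm38). The counting tool and its strand setting are not given in the sources used here. For every gene the authors deposited an estimated count averaged over all 6 libraries and unscaled for depth. The SD of these counts and the z-score of each library, both deposited beside it, are used here as a score. The deposited column of WS replicate 3 carries an extra letter in its name, and was matched because its z-scores enter the deposited WS mean. Columns of the authors' own comparison (fold change, p-value, FDR) enter no value given here.

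Counts per library were computed as the mean plus z-score times SD and rounded to whole numbers. In 13418 genes with a rounding uncertainty under 0.1 count, 91.0% of the values lay within 0.1 of a whole number. WS was compared with NS by edgeR 4.0.16 (TMM, filterByExpr, quasi-likelihood F test, Benjamini-Hochberg adjustment) in R 4.3.3, with calls at an adjusted p below 0.05 and a log2 fold change past 1 in either direction, the thresholds of the study's methods. DESeq2 1.42.0, other normalizations, other filters, the replicate block and leaving out each library were alternatives, and sums of lists without their leading gene were added after the data were seen. Intervals at 95% come from the fit. Exact permutation tests used SciPy 1.17.1. The computing back and the edgeR fit were tested on simulated counts. Library pairs differed by a chi-square of 4.49 to 21.5 per degree of freedom, so each library counted as 1 replicate. The labels give the replicates as separate samples only, so p-values measure the spread between these samples.

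Positions, exon lengths and overlaps came from GENCODE M21, and start sites from RefSeq on GRCm38.p6. Deviations from the group mean correlated between same-numbered libraries (r = 0.34, 0.23 and 0.12, Pearson, over 13747 genes that are not independent of each other), so the numbers were taken to pair the libraries. The main fit and the permutation tests did not use this pairing. It entered only the fit with the replicate block and the comparisons of same-numbered pairs. The 10 genes and all lists were chosen with earlier results of these data known. Named genes were the 10 members, the 2 largest absolute log2 fold changes and any call of each list, and the 5 genes most like Hmox1. Reads, RT-qPCR and imaging were not analysed here.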

Additional observations from a re-analysis of the deposited data

How the results depend on the processing

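Over 13 alternatives (3 normalizations, 2 filters, DESeq2, the replicate block and 6 fits without 1 library), 0 of the 9 genes other than Hmox1 passed an adjusted p of 0.05, and the median log2 fold change of the 10 stayed between 0.05 and 0.10. Hmox1 stayed between 0.15 and 0.24. The sign changed in Hmox2 without WS replicate 3 (0.02) and in Gclc without WS replicate 1 (0.02), and in none of the other 8 genes. With the replicate block the median of the 10 genes was 0.07 and 6 genes of the whole table were called higher, against 4 without it, and no call of a member or pathway gene differed. Pecam1 passed the adjusted p with the block and with DESeq2, and was called without WS replicate 1. Leaving out 1 library gave 0 to 6 genes called higher, with 0 without NS replicate 2 or NS replicate 3, and 0 to 1 called lower. In the pathway lists it gave 0 to 1 called. At an unadjusted p under 0.05 alone, 119 genes were higher and 45 lower. The Hmox2 to Hmox1 level per kb was 6.81 with all exons and 7.82 with the longest transcript, and the lengths used make that difference. Both ratios rest on Hmox2 counts that may include reads of Cdip1. Nqo1, with 39 to 72 reads per library, and Hmox1, with 82 to 109, carry the largest counting error of the 10.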

Other observations

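Some genes of the lists differed more by replicate number than by group. Gstm1 was highest in replicate 1 of both groups (275.7 CPM in NS, 322.5 in WS), against 236.6 to 249.0 CPM in the other 4 libraries. Nqo1 was lowest in replicate 1 of both groups (2.46 and 2.84 CPM), against 3.25 to 4.45 CPM in the others. These genes were picked after their values were seen, and the difference between replicate numbers was not tested.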
